A study of Mus musculus with 15 samples.

Results

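The genes examined here belong by symbol to families of RNA splicing factors. They were measured in sorted mouse islet cells that cre recombination labelled to mark β cells. The rule took every gene whose name starts with Srsf, Sfrs, Hnrnp, Sf3, Prpf, Snrp, U2af or Rbm followed by a digit, with the imprinted gene Snrpn left out. A shared symbol does not show a role in splicing, above all for the Rbm genes. Pnn (pinin) was added because of its difference between ALDH+ and ALDH- cells in these same libraries, so its values are given as a description with no test. The rule took 102 of the 23235 gene symbols listed: 12 SR proteins, 18 hnRNPs, 35 core snRNP proteins and their partners, 36 Rbm genes, and Pnn. All 102 had a usable estimate in each of the 15 libraries.

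Islet cells marked by red fluorescent protein after cre recombination were sorted by aldehyde dehydrogenase activity (Aldefluor) into ALDH- and ALDH+ fractions, and poly-A RNA of each fraction was sequenced. The study asked how ALDH+ β cells, taken as failing β cells, differ from ALDH- cells, and whether loss of the FoxO transcription factors changes this. The controls are labelled FoxO Triple Heterozygous (Foxo1, Foxo3 and Foxo4 all Het), while the methods call the controls wild-type, and the Foxo KO cells are knocked out for the same 3 genes; all mice were on a mixed 129JC57BL/6 background. There were 3 ALDH- control, 2 ALDH+ control, 5 ALDH- Foxo KO and 5 ALDH+ Foxo KO libraries. The driver was RIP-Cre, active in differentiated β cells, in 9 libraries (ALDH- control 1 and 2, ALDH+ control 1, and knockout replicates 1 to 3 of both fractions) and Pdx-Cre, active from pancreatic precursors onwards, in 6. A label set in precursors can also mark other islet cells, and their hormone genes Gcg, Sst and Ppy were higher in the Pdx-Cre libraries. The sorts of Rip-cre mice used islets pooled from 10 to 20 animals of 6 months of age per genotype. No label ties a library to separate animals, so the p-values measure the spread between these libraries, part of which may be technical. In pooled cells, a change in the number of cells that use a gene and a change in RNA per cell cannot be told apart.

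Splicing removes introns from new transcripts. The spliceosome is built from small nuclear ribonucleoproteins (snRNPs), each with a ring of Sm proteins, and from factors that recognize the branch point and the 3′ splice site, such as the SF3 complexes and the U2AF heterodimer. SR proteins, rich in arginine and serine, mostly favour the use of nearby exons, hnRNPs often oppose it, and many Rbm proteins act beside both, so the relative amounts of these proteins shape which exons a cell keeps. Pnn is a nuclear speckle and exon junction protein that also sits at cell junctions.

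The 150 bases before the annotated start are shown for Pnn and for some tested members (RefSeq, GRCm38.p6, gene strand, 5′ to 3′). These members had the smallest p in each direction among those with an entry. Whether the members share a regulator was not tested. Capitals mark the letters searched on both strands: CCGGAAG (the ETS motif), GGGCGG (the SP motif), CCAAT and TGACGT (the core of the CRE motif). The windows lie at chr12:59066769-59066918 (+) for Pnn, chr13:34875379-34875528 (+) for Prpf4b, chr12:65036184-65036333 (+) for Prpf39, chr2:156180239-156180388 (-) for Rbm39, chr7:19149688-19149837 (+) for Snrpd2 and chr7:30650229-30650378 (-) for Rbm42. The first 4 had higher RNA in ALDH+ cells and the last 2 lower.
Pnn: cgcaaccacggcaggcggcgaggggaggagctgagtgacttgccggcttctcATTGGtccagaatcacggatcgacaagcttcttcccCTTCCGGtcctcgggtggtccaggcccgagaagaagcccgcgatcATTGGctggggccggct
Prpf4b: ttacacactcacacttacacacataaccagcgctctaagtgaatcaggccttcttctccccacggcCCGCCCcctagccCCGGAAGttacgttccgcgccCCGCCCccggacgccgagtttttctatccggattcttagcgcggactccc
Prpf39: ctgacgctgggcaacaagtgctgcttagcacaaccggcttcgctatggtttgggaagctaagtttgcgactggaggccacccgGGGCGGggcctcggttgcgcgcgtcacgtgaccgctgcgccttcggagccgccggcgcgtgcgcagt
Rbm39: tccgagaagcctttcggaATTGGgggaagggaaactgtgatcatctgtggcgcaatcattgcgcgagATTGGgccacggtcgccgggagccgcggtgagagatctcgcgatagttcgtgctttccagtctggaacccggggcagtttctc
Snrpd2: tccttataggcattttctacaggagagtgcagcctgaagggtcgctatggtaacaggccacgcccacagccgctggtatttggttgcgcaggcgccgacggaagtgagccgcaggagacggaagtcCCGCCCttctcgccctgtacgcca
Rbm42: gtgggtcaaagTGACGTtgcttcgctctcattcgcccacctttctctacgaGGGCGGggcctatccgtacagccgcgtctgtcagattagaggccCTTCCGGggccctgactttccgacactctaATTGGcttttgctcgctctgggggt

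Of the 102 members, 86 had at least 1 such window, counted in full from 250 bases before to 50 after the start. CCGGAAG was in 27.5% of the members' 109 windows against 8.86% of all 32851 windows, TGACGT in 22% against 7.51%, GGGCGG in 58.7% against 35.7%, and GTAAACA, a FOXO motif, in 3.67% against 3.65%. CCAAT was in 47.7% against 37.4%. TGACGT is part of the full CRE motif TGACGTCA, which was in 1.83% against 1.79%. Among the members called different between the fractions below, TGACGT was found for Rbm42 and U2af1, which were lower, and for Hnrnph1, which was higher. CCGGAAG was found for Prpf4b, which was higher, and for Rbm42. In the 14 windows of the higher members, each of these motifs was in 7.14%, below the share over all members. Of the 4 windows of the lower members, CCGGAAG was in 1 and TGACGT in 3. The 32851 windows belong to 27025 symbols and are not limited to the genes tested here. These are matches of letters and not sites of binding.

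The 15 libraries held 7492220 to 10058043 fragments each, as counted back from the confidence interval deposited with every FPKM (fragments per kilobase of transcript and per unit of library depth). Aldh1a3 was at 0.490 to 4.09 FPKM in the 8 ALDH- libraries and at 22.1 to 76.9 in the 7 ALDH+ libraries. Foxo1 was at 12.04 to 20.1 FPKM in controls and at 0.0925 to 4.24 in Foxo KO libraries, while Foxo3 was at 12.7 to 23.0 and 9.78 to 30.6 and so did not separate the genotypes; the value of a whole gene need not show the loss of part of it. Foxo4 was at 1.34 FPKM or less throughout. The β-cell markers Iapp, Pdx1, Nkx6-1, Mafa and Slc2a2 summed to 82050 to 125400 FPKM in ALDH- and 33490 to 97640 in ALDH+ libraries, with Ins1 and Ins2 too deep to be used. Such a sum follows its most abundant gene and does not show how each marker differed. The delta-cell markers Sst and Hhex together were at 414 to 13650 FPKM in ALDH- and at 506.7 to 2990 in ALDH+ libraries. Gcg, the hormone of alpha cells, was at 667.2 to 35840 FPKM in ALDH- and at 153.5 to 5822 in ALDH+ libraries, and Ppy, the hormone of PP cells, at 206.0 to 8978 and 97.4 to 2132. Endothelial and stromal markers summed to at most 1.48 FPKM, leukocyte markers to 19.7 to 148.5, acinar markers to 0.189 to 191.1 and duct markers to 94.6 to 155.4.

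The members were well expressed. After the libraries were rescaled to each other and genes with a mean under 1 FPKM were left out, 11253 genes were tested, among them 95 members and Pnn. The mean FPKM of the 95 ranged from 1.37 (Srsf12) to 177.6 (Rbm3, a cold-inducible RNA-binding protein), with a median of 21.8 against 10.01 for all genes tested. The next highest were Srsf2 at 152.0 and Srsf5 at 136.7, both SR proteins. Hnrnpa2b1 at 116.8 and Hnrnph1 at 113.4 led the hnRNPs, and the Sm protein genes Snrpg at 84.9 and Snrpd2 at 84.0 led the core group. Hnrnpa1, usually an abundant hnRNP, was at only 4.75 FPKM and varied 20.8-fold between libraries; it has many near-identical copies in the genome, so its value is uncertain. The 6 members under the filter were all Rbm genes: Rbm11, Rbm24, Rbm31y, Rbm38, Rbm44 and Rbm46.

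ALDH+ cells were compared with ALDH- cells first as an average over the 2 genotypes, with the cre driver in the model (limma on log2(FPKM + 1), Benjamini-Hochberg adjustment over all genes tested). Of the 95 members, 10 were higher in ALDH+ cells at an adjusted p below 0.05, which is 10.5%, while 2.22% of all genes were called higher. The 10 were Sfrs18, Prpf39, Prpf38b, Rbm26, Prpf4b, Rbm25, Hnrnph1, Rbm5, Rbm39 and Sf3b1. Another 4 were lower (4.21%, against 3.77% of all genes, a share near the background): Snrpd2, Rbm42, U2af1 and Rbm3. The other 81 did not pass. The members were chosen with earlier results of these data known, so their shares are descriptions and not independent support. The study's own list for wild-type cells already held Sfrs18, Prpf39, Prpf38b, Prpf4b, Rbm26, Rbm5 and Rbm39 as higher in ALDH+ cells. It also held Pnn and Srsf5 as higher. That list compares control cells alone, while the calls here average over genotypes. It comes from the same study and may rest on some of the same libraries, ALDH+ control 1 among them, so it is not independent support. The plot of every tested member by subgroup shows higher ones in all 4 subgroups. Among the SR proteins the only one was Sfrs18, which is placed there by its old symbol.

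**Figure D1:**
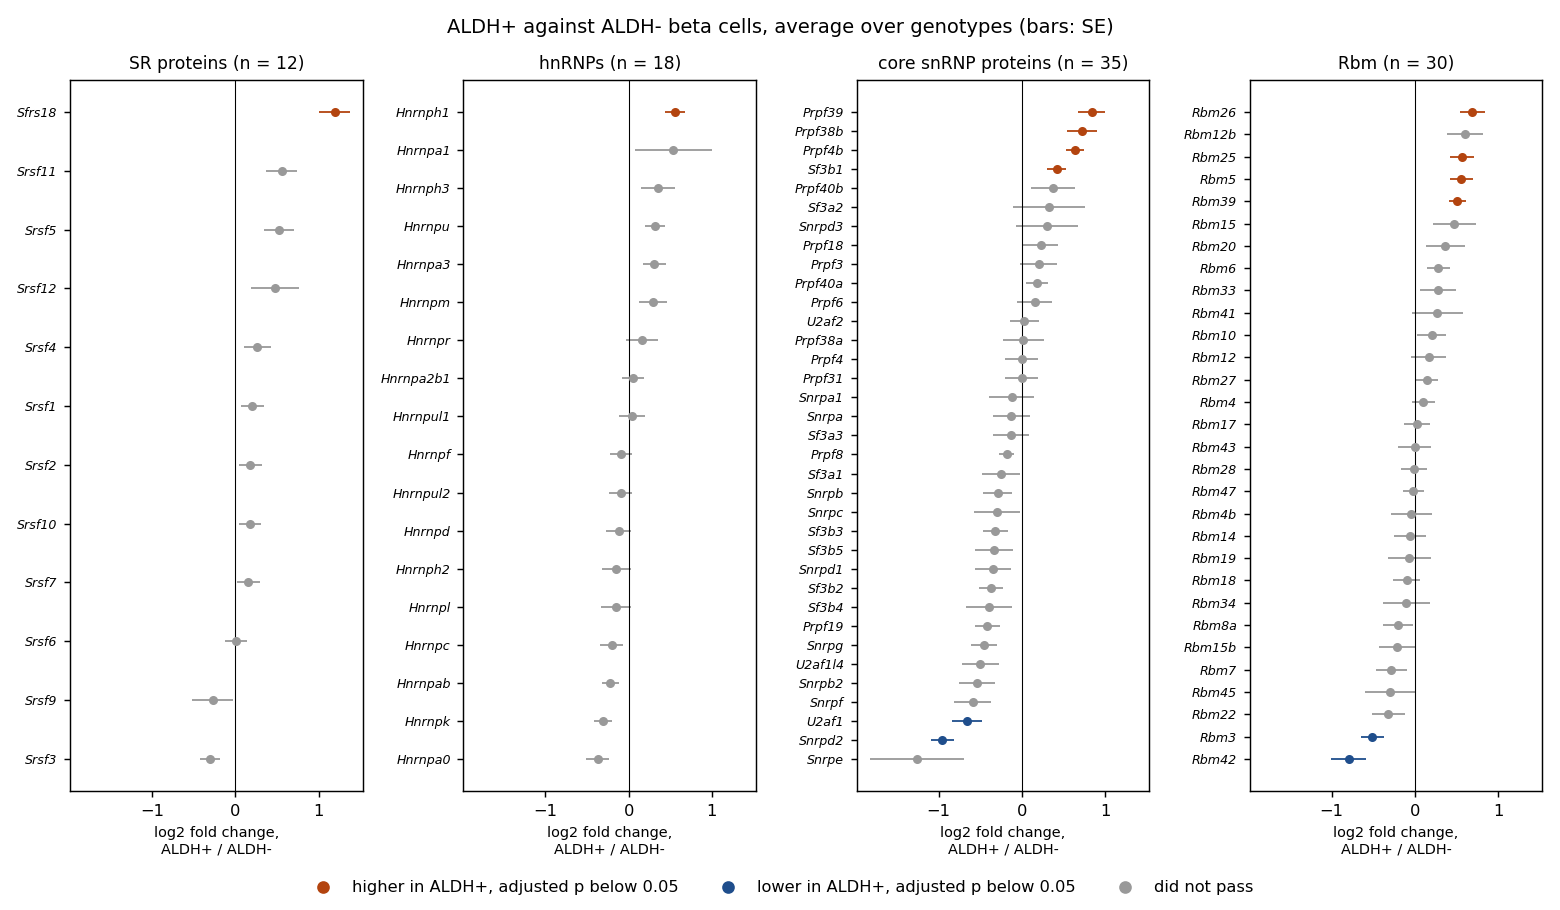
Log2 fold change of ALDH+ against ALDH- cells (x axis, average over genotypes, on the log2(FPKM + 1) scale) for the 95 tested members, 1 row per gene and 1 panel per subgroup; points are estimates and bars standard errors. The 10 members higher in ALDH+ cells are orange, the 4 lower are blue, and the 81 that did not pass are grey.

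These calls depend on 1 library. Without ALDH+ control 1, the only ALDH+ control made with RIP-Cre, none of the 95 members passed in either direction, and just 3 genes passed in the whole table. All 14 members kept their sign without it, with log2 fold changes of 0.41 to 1.16 for the 10 and -1.03 to -0.50 for the 4, at adjusted p-values of 0.10 to 0.29 (limma). Leaving out ALDH- control 2 or ALDH+ control 2 left 6 members called higher. The calls of lower RNA were weaker still: without any one of the 3 ALDH- controls, ALDH- Foxo KO 5 or ALDH+ control 2, 1 of the 4 was left, and 2 were left without ALDH+ Foxo KO 1, 3 or 4.

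Pnn lies at chr12:60167906-60175004 (mm9, the build of the files). It was at 25.5, 18.9 and 14.8 FPKM in the 3 ALDH- control libraries and at 73.7 and 37.9 in the ALDH+ controls. In Foxo KO cells it was at 22.5, 30.0, 19.8, 20.1 and 15.1 in the ALDH- fraction and at 40.2, 37.1, 44.2, 34.7 and 34.2 in the ALDH+ fraction. Every ALDH+ library was thus above every ALDH- library, with a log2 difference of 1.14 ± 0.14 (SE), which is 2.21-fold. Among the 95 tested members, Sfrs18 was the only one with a larger difference upward.

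Sfrs18, now named Pnisr, encodes an arginine- and serine-rich protein that interacts with Pnn, and lies at chr4:21774730-21803622 (mm9). It was at 15.1, 11.8 and 10.1 FPKM in ALDH- controls and at 41.7 and 27.0 in ALDH+ controls. In Foxo KO cells the ALDH- libraries were at 20.02, 16.03, 15.7, 15.9 and 6.06 and the ALDH+ libraries at 27.8, 26.0, 36.1, 21.0 and 27.2. The fractions did not overlap in either genotype, and the log2 fold change was 1.19 ± 0.18 (adjusted p = 0.00383). The lowest value, of the fifth ALDH- Foxo KO library, was far below the other 4 of its group.

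Sfrs18 counts among the SR proteins here only by its old symbol, and none of the Srsf genes of that group passed. The median log2 fold change over the 12 was 0.19, against -0.02 over all genes tested, and 10 of the 12 values were above 0, but Sfrs18 alone passed. Srsf5, which promotes the use of exons it binds, was at 72.0 to 177.1 FPKM in ALDH- and 126.1 to 199.2 in ALDH+ libraries, with a log2 fold change of 0.53 ± 0.18 (adjusted p = 0.0979). The study's own list for wild-type cells did hold Srsf5 as higher in ALDH+ cells. Srsf11 was close to Srsf5 here, with 0.55 ± 0.19 (adjusted p = 0.0926). Srsf2, a broad exon-definition factor, was at 118.7 to 201.2 FPKM in ALDH- and 134.2 to 200.2 in ALDH+ libraries, and its log2 fold change of 0.18 ± 0.14 did not pass. Srsf3 had the lowest value of the group, -0.30 ± 0.12 (adjusted p = 0.155).

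Among the hnRNPs, Hnrnph1, a G-tract binding regulator of splice choice at chr11:50191221-50200030 (mm9), was the only one that passed. It was at 97.1, 100.4 and 86.5 FPKM in ALDH- controls and at 154.4 and 131.5 in ALDH+ controls. In Foxo KO cells it was at 98.7, 92.0, 112.7, 96.3 and 65.9 in the ALDH- and at 135.9, 122.9, 181.6, 120.1 and 104.6 in the ALDH+ fraction. Apart from the fifth ALDH+ Foxo KO library, every ALDH+ library was above every ALDH- library, and the log2 fold change was 0.56 ± 0.12 (adjusted p = 0.0131). Hnrnpa2b1, the most abundant hnRNP, was at a median of 118.2 FPKM in ALDH- and 117.0 in ALDH+ libraries, and the 95% interval of its log2 fold change ran from -0.22 to 0.33. Hnrnpk, a poly-C binding hnRNP, stood at -0.31 ± 0.10 and did not pass (adjusted p = 0.0919). The median over the 18 hnRNPs was -0.03, or 0.15 when the libraries were quantile normalized, so the group had no stable direction.

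The core group held changes in both directions. The higher ones were Prpf39, an accessory protein of the U1 snRNP, Prpf38b, related to a factor that activates the spliceosome, Prpf4b, a kinase that phosphorylates spliceosome proteins, and Sf3b1, the branch-point binding subunit of the U2 snRNP. Prpf4b (chr13:34967363-34994747, mm9) had the clearest separation of these. It was at 33.4, 30.2 and 20.7 FPKM in ALDH- controls, 55.0 and 37.9 in ALDH+ controls, 34.0, 32.8, 30.4, 30.8 and 28.2 in ALDH- Foxo KO and 44.4, 46.1, 48.2, 43.6 and 48.7 in ALDH+ Foxo KO libraries. No ALDH+ library overlapped the ALDH- range, and the log2 fold change was 0.64 ± 0.11 (adjusted p = 0.00578).

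Prpf39 (chr12:66137321-66164373, mm9) separated the fractions mainly in controls. It was at 7.01, 5.93 and 4.60 FPKM in ALDH- and at 21.8 and 12.02 in ALDH+ controls, but at 14.7, 11.4, 12.3, 9.99 and 5.99 in ALDH- and 14.99, 11.1, 14.8, 12.9 and 11.1 in ALDH+ Foxo KO libraries, where the fractions overlapped. Its average log2 fold change was 0.84 ± 0.16 (adjusted p = 0.00848), made up of 1.39 ± 0.27 in controls and 0.29 ± 0.18 in Foxo KO cells. Prpf38b ranged from 10.6 to 32.7 FPKM in ALDH- and from 28.1 to 44.2 in ALDH+ libraries, with a log2 fold change of 0.72 ± 0.18 (adjusted p = 0.0298). Sf3b1 ranged from 29.0 to 42.8 and from 36.99 to 51.7 FPKM, with the smallest log2 fold change of the 10, 0.42 ± 0.11 (adjusted p = 0.0411).

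Snrpd2, a subunit of the Sm ring at chr7:19735187-19738075 (mm9), was the member most clearly lower in ALDH+ cells. It was at 86.7, 102.7 and 97.2 FPKM in ALDH- controls and at 33.7 and 57.6 in ALDH+ controls. In Foxo KO cells it was at 108.7, 82.1, 99.7, 126.1 and 134.8 in the ALDH- and at 70.3, 75.1, 44.1, 78.4 and 62.9 in the ALDH+ fraction. All ALDH+ libraries were below all ALDH- libraries, and the log2 fold change was -0.95 ± 0.14 (adjusted p = 0.00349). U2af1, which reads the AG of the 3′ splice site, ranged from 11.01 to 28.8 FPKM in ALDH- and from 5.59 to 15.9 in ALDH+ libraries (-0.66 ± 0.18, adjusted p = 0.0385); its values rested on as few as 36 fragments in a library. Its partner U2af2 had a log2 fold change of 0.03 ± 0.18.

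Of the 7 Sm protein genes (Snrpb, Snrpd1, Snrpd2, Snrpd3, Snrpe, Snrpf and Snrpg, grouped after their values were seen), Snrpd2 alone passed, and the other log2 fold changes ran from -1.26 ± 0.57 for Snrpe to 0.30 ± 0.37 for Snrpd3. Snrpg, the most abundant, was at 72.6 to 134.9 FPKM in ALDH- and 49.5 to 90.6 in ALDH+ libraries (-0.45 ± 0.16, adjusted p = 0.107). Snrpe was listed at 0 in ALDH+ Foxo KO replicate 3 and at 26.1 to 63.8 FPKM in ALDH- libraries. Snrpd3 rested on as few as 10 fragments in a library. The median over all 35 core members was -0.13.

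Of the 30 Rbm genes tested, 4 were higher and 2 lower. The higher ones were Rbm26, Rbm5, Rbm25 and Rbm39. Rbm5 acts on exons of apoptosis genes, Rbm25 binds exonic enhancers with U1 snRNP proteins, and Rbm39 is a U2AF-related coactivator. Rbm26 (chr14:105513736-105576544, mm9) was at 23.7, 23.0 and 23.8 FPKM in ALDH- controls, 58.0 and 35.2 in ALDH+ controls, 27.0, 32.2, 31.2, 20.6 and 28.3 in ALDH- Foxo KO and 35.2, 32.7, 46.6, 40.8 and 38.1 in ALDH+ Foxo KO libraries. The fractions did not overlap, although the highest ALDH- and the lowest ALDH+ library were close, and the log2 fold change was 0.69 ± 0.15 (adjusted p = 0.0131). Rbm39, the most abundant of these at 48.1 to 87.9 FPKM in ALDH- and 81.1 to 124.3 in ALDH+ libraries, differed by 0.51 ± 0.11 (adjusted p = 0.0109). Rbm25 differed by 0.57 ± 0.14 (adjusted p = 0.0298) and Rbm5 by 0.56 ± 0.14 (adjusted p = 0.0250).

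The 2 lower Rbm genes were Rbm42 and the cold-inducible Rbm3. Rbm42 was at 21.6, 24.2 and 23.0 FPKM in ALDH- controls, 16.7 and 10.9 in ALDH+ controls, 16.4, 29.4, 24.6, 22.9 and 40.2 in ALDH- Foxo KO and 13.2, 17.3, 8.58, 16.3 and 17.3 in ALDH+ Foxo KO libraries. Only 1 ALDH- library reached into the ALDH+ range, and the log2 fold change was -0.80 ± 0.21 (adjusted p = 0.0315). Rbm3 ranged from 158.9 to 285.0 FPKM in ALDH- and from 104.2 to 201.9 in ALDH+ libraries, which overlapped (-0.51 ± 0.13, adjusted p = 0.0345). The median over the 30 was 0.01.

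**Figure D2:**
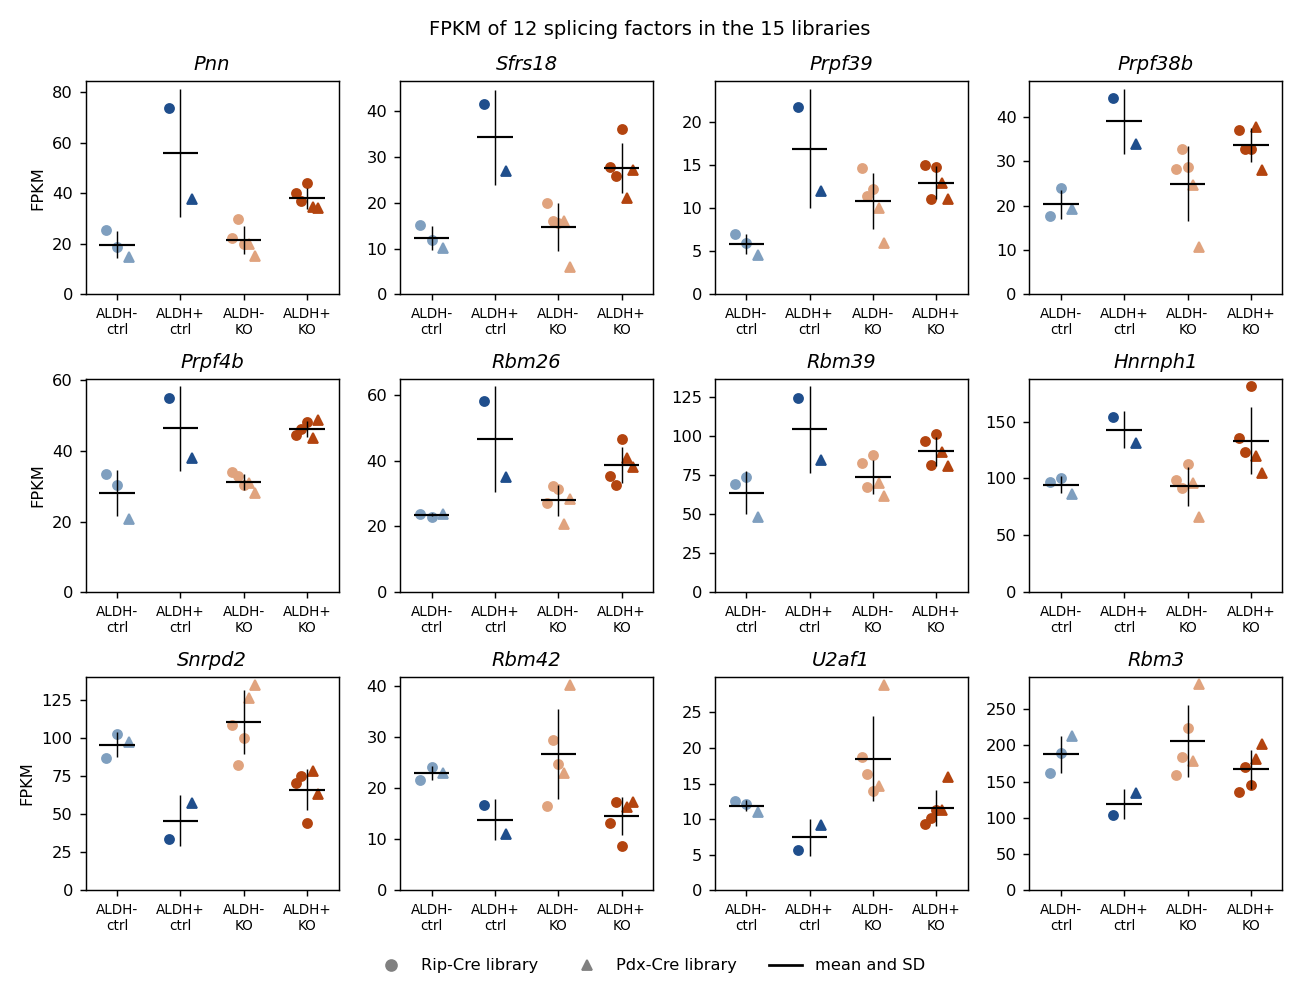
FPKM (y axis, from 0, as deposited) of Pnn and 11 of the members that passed, 1 point per library, for the 4 groups on the x axis; circles are Rip-Cre and triangles Pdx-Cre libraries, horizontal lines are group means and vertical lines SD (n = 3, 2, 5 and 5 from left to right). Pnn, Sfrs18, Prpf4b and Rbm26 have every ALDH+ library above every ALDH- library, Snrpd2 has every one below, and ALDH+ control 1 is the highest point for Pnn, Sfrs18, Prpf39, Prpf38b, Prpf4b, Rbm26 and Rbm39.

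In all, 4 of the 95 tested members (Sfrs18, Prpf4b, Rbm26 and Snrpd2) had no overlap between the 8 ALDH- and 7 ALDH+ libraries, which is 4.21%, against 0.675% of all genes tested. Sfrs18 had a log2 difference of 1.17 in Rip-Cre and 1.21 in Pdx-Cre libraries, and Snrpd2 of -1.04 and -0.87. Over the 95 members, 72 had the same sign with both drivers (75.8%, against 65.6% of all genes), with Pearson's r of 0.63 and Spearman's rho of 0.68 across genes, which are not independent replicates.

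Other transcripts differed between the same libraries. The study had already named the nuclear-retained RNAs below, and many genes of ribosomal proteins, as changed in ALDH+ cells. Their counts are thus descriptions and not independent support. Of all genes tested, 2.22% were called higher and 3.77% lower. The nuclear-retained RNAs Malat1, Neat1, Meg3, Kcnq1ot1 and Snhg11 were higher in ALDH+ cells in 5 of 5 cases, Malat1 ranging from 229.9 to 1420 FPKM in ALDH- and from 1801 to 4371 in ALDH+ libraries. Of 79 genes of cytosolic ribosomal proteins, 67 were lower and none higher, and their median level in a library, on the log2(FPKM + 1) scale, was 7.07 to 7.85 in ALDH- and 6.15 to 7.17 in ALDH+ cells. Hormones of other islet cells had their highest values in ALDH- libraries: Ppy was lower in ALDH+ cells (-2.10 ± 0.45, adjusted p = 0.0131), while Gcg (-2.13 ± 0.65, adjusted p = 0.0671) and Sst (-0.87 ± 0.52, adjusted p = 0.373) did not pass. The part of these in the differences of the splicing factors was not tested.

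Members that were higher also tended to be long and rich in annotated isoforms (GENCODE M21, GRCm38). The mean length of a gene's coding transcripts had a median of 2713 bases over the 10 higher members, 2027 over the 81 that did not pass and 1432 over the 4 lower ones. Across the 95 members, the log2 fold change and this length had a Spearman's rho of 0.28, and across 11150 of the genes tested 0.35, so length moved with the difference in general. With the trend on length taken out of each library, 7 members were called higher and 1 lower. The share of all genes called under that setting is not given here. Prpf4b, whose mean length of 7844 bases was the highest among the 14, kept a value of 0.40 and no longer passed (adjusted p = 0.0529). Isoforms annotated as targets of nonsense-mediated decay were listed for 8 of the 10 higher members, 2 of the 4 lower and 33 of the 81 others. Isoforms with a retained intron were listed for 7 of the 10, 4 of the 4 and 56 of the 81. The median number of isoforms was 11.5, 6 and 6, and a gene with more isoforms has more chances to hold either kind. Shares over all genes were not counted. The files give 1 value per gene, so isoforms were not measured.

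Genes that work with these factors were counted in the same comparison from 4 lists, 84 genes in all, of which 79 were found and tested. Of these, 11 were higher in ALDH+ cells and none was lower, while 2.22% of all genes were called higher and 3.77% lower. The median log2 fold change was 0.14, against -0.02 over all genes. The lists were made with earlier results of these data known, so the count is a description and not independent support. The study's own list for wild-type cells already held Clk1, Clk4, Srrm2, Son, Luc7l2, Snrnp70, Ddx17 and Tia1 as higher. As said above, that list may rest on some of the same libraries. Hardly any gene in the whole table passed without ALDH+ control 1, as given above. SR protein kinases, which phosphorylate SR proteins and so set their activity and place in the nucleus, held 3 of the 11 among 6 genes, and all 6 values were above 0. Clk4 ranged from 20.4 to 43.0 FPKM in ALDH- and from 37.2 to 62.1 in ALDH+ libraries (0.83 ± 0.15, adjusted p = 0.00624). Clk1 (0.84 ± 0.19, adjusted p = 0.0197) and Clk2 (0.61 ± 0.16, adjusted p = 0.0341) were the others.

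Arginine- and serine-rich proteins of nuclear speckles and coactivators held 5 of the 11 among 14 genes: Srrm2, Son, Luc7l, Luc7l2 and Sfswap. Srrm2, a scaffold of the speckle, was at 105.1 to 145.3 FPKM in ALDH- and 149.98 to 254.1 in ALDH+ libraries, with no overlap (0.61 ± 0.12, adjusted p = 0.00929). Luc7l2, related to a yeast U1 snRNP protein, was at 20.6 to 35.3 and 38.6 to 71.7 FPKM, again with no overlap (0.87 ± 0.16, adjusted p = 0.00766). Of 31 snRNP-specific proteins and helicases, Snrnp70, the 70 kDa protein of the U1 snRNP, and the helicase Ddx17 were higher, by 0.97 ± 0.17 (adjusted p = 0.00647) and 1.04 ± 0.20 (adjusted p = 0.00878). The median of that class was -0.13. Of 28 other regulators of splice choice, Tia1, which helps the U1 snRNP at weak 5′ splice sites, alone passed (1.11 ± 0.23, adjusted p = 0.0111), with a class median of 0.04.

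**Figure D3:**
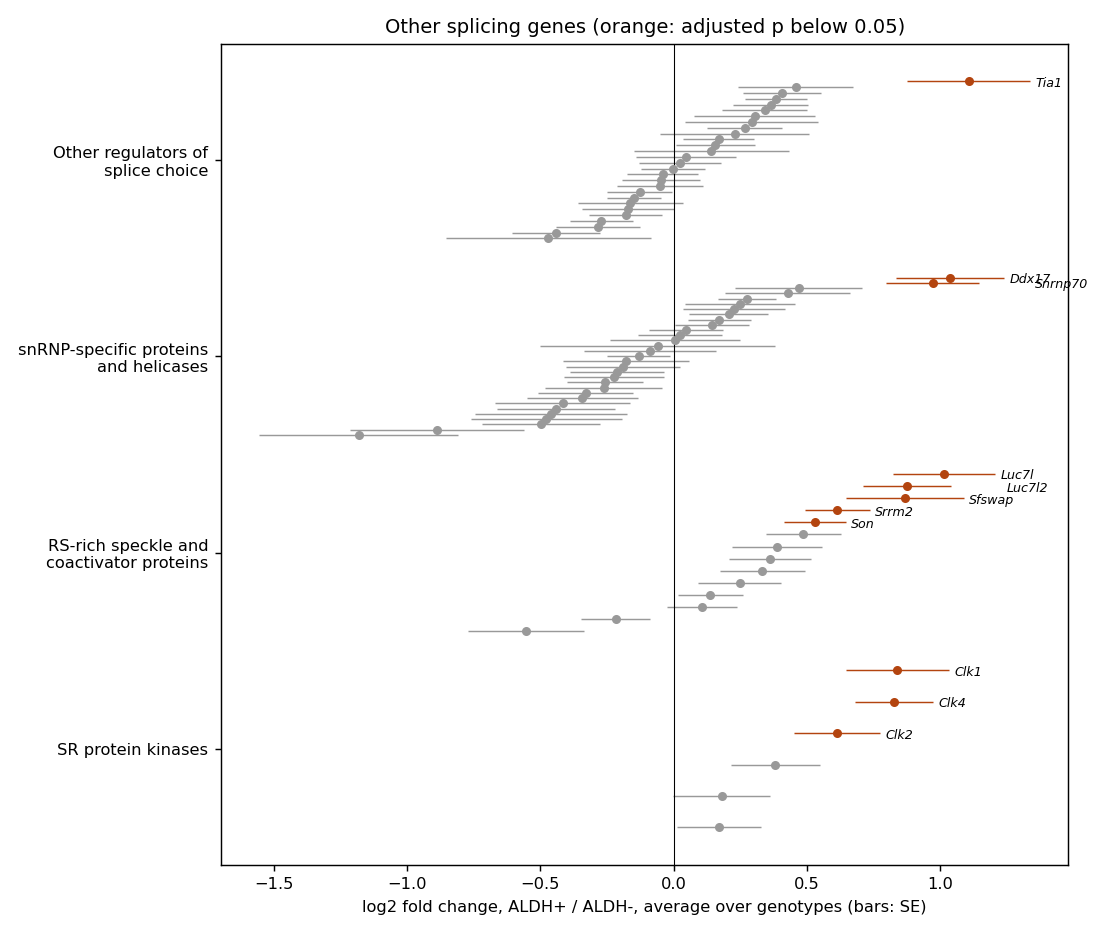
Log2 fold change of ALDH+ against ALDH- cells (x axis, average over genotypes, on the log2(FPKM + 1) scale) for 79 other genes of splicing, 1 row per gene, grouped by class; points are estimates and bars standard errors, and the 11 genes that passed are orange. All 6 SR protein kinases lie to the right of 0, and no gene passed to the left.

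Within controls alone, 2 members were higher in ALDH+ cells (0.462% of all genes were called higher) and 1 was lower (0.755%). Sfrs18 was higher by 1.44 ± 0.30 (adjusted p = 0.0359), Prpf39 by 1.39 ± 0.27 and Snrpd2 lower at -1.18 ± 0.23, both with an adjusted p of 0.0350. With 3 and 2 libraries these calls were fragile, and leaving out any one of the 3 ALDH- controls ended all of them. Within Foxo KO cells, 0 of the 95 members passed limma's adjusted threshold, as did 0.0178% of all genes, while 21 members (22.1%) had an unadjusted p under 0.05, against 13.1% of all genes. Sfrs18, Snrpd2 and Prpf4b came nearest, with 0.94 ± 0.21, -0.72 ± 0.16 and 0.56 ± 0.13, each at an adjusted p of 0.128.

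Controls and Foxo KO cells are separate libraries, and 71 of the 95 members had the same sign of ALDH difference in both (74.7%, against 66.0% of all genes). No member passed the test of the difference between genotypes itself: 0% of all genes were called, and 2 members had an unadjusted p under 0.05, against 4.23% of all genes. They were Prpf39, with a difference of -1.11 ± 0.32 (unadjusted p = 0.0035, adjusted p = 0.998), and Snrpf, with 1.35 ± 0.44 (unadjusted p = 0.0078, adjusted p = 0.998). Snrpf, an Sm protein gene, was at 19.1, 19.5 and 15.7 FPKM in ALDH- and 5.36 and 9.61 in ALDH+ controls, but at 8.90 to 13.8 in ALDH- and 6.28 to 17.4 in ALDH+ Foxo KO libraries, so the fractions were apart in controls and overlapped in knockouts. The Snrpf values rested on as few as 28 fragments in a library.

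**Figure D4:**
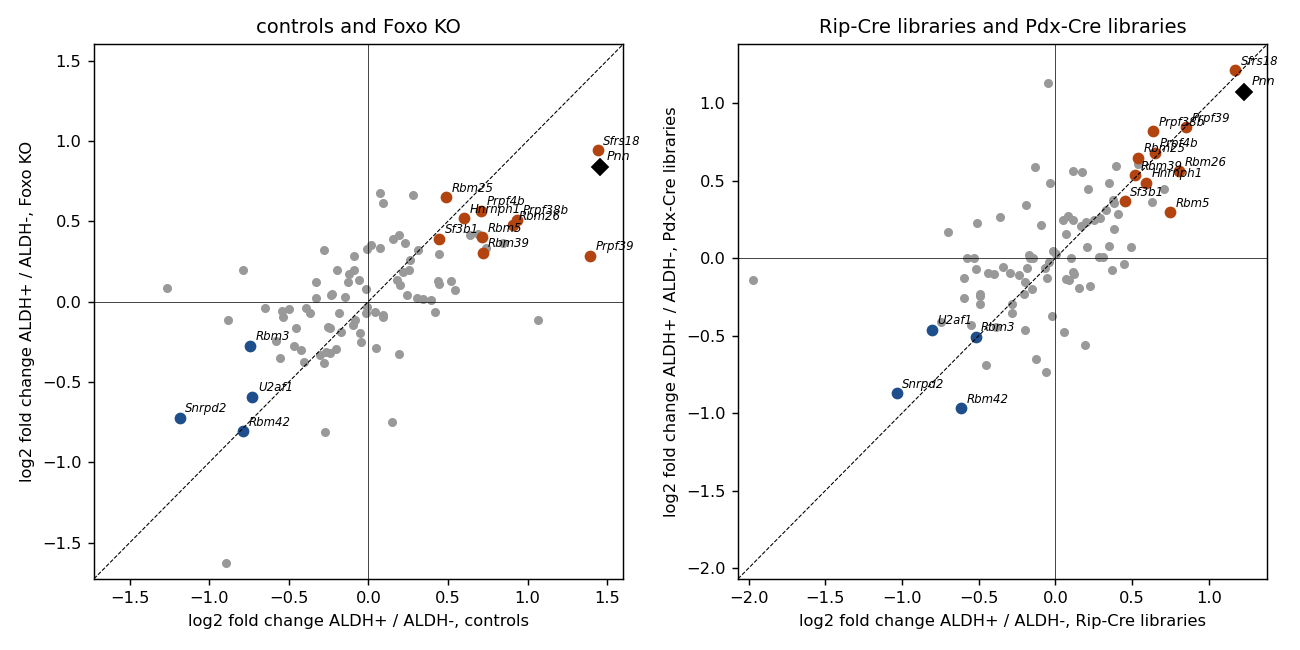
Log2 difference of ALDH+ against ALDH- cells for the 95 tested members and Pnn (black diamond), in controls against Foxo KO cells and in Rip-Cre against Pdx-Cre libraries, all on the log2(FPKM + 1) scale; 1 point is 1 gene and the dashed line marks equal values. The sign was shared by 71 of 95 members between genotypes and by 72 of 95 between drivers.

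Foxo KO cells were then compared with controls within each fraction. In ALDH- cells 0 of the 95 members passed in limma (0.0178% of all genes did), and 6 had an unadjusted p under 0.05, near the 5.78% of all genes. Prpf39 had the smallest p, with 0.78 ± 0.21 (unadjusted p = 0.0020, adjusted p = 0.495), and its ALDH- Foxo KO mean was above its ALDH- control mean, with overlap in replicate 5. In ALDH+ cells 0 of the 95 passed (0% of all genes), and 4 had an unadjusted p under 0.05, against 6.6% of all genes. Snrpd2 had the smallest, with 0.62 and an adjusted p of 0.639.

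The libraries of the 2 cre drivers were compared next. Between Pdx-Cre and Rip-Cre libraries 9.73% of all genes were called, and 1 of the 95 members (1.05%), while 16 members (16.8%) had an unadjusted p under 0.05, against 25.7% of all genes; whether the members differ from other genes in this was not tested. The 1 member called was Rbm20, a splicing regulator of titin in muscle, at chr19:53751796-53941570 (mm9). In Rip-Cre libraries it was at 1.33 and 1.86 FPKM in ALDH- controls, 2.90 in the ALDH+ control, 2.49, 1.94 and 3.96 in ALDH- Foxo KO and 2.08, 2.55 and 5.38 in ALDH+ Foxo KO cells. In Pdx-Cre libraries it was at 4.04 and 5.46 in the controls and at 4.30, 7.40, 7.47 and 9.29 in Foxo KO cells. All but 1 of the 9 Rip-Cre libraries were below all 6 Pdx-Cre libraries, and the log2 difference was 1.00 ± 0.22 (adjusted p = 0.00969). The count of members called was 3 without ALDH- Foxo KO 4 or ALDH+ Foxo KO 4, and 2 without ALDH+ Foxo KO 3 or 5. Gcg, Sst and Ppy were higher in Pdx-Cre libraries, by 3.13 ± 0.62, 2.35 ± 0.50 and 2.31 ± 0.43 on the log2 scale (adjusted p = 0.00549, 0.00769 and 0.00349), and their part in the difference of Rbm20 was not tested. No member passed the test of whether the ALDH difference depends on the driver (0% of all genes), and 3 had an unadjusted p under 0.05, against 4.54% of all genes.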

How the data were processed

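RNA of 15 libraries of sorted, cre-labelled islet cells was analysed from the deposited FPKM values (fragments per kilobase, scaled to library depth). Per the labels, the authors aligned poly-A reads to mm9 with TopHat2 2.0.4 after bcl2fastq 1.8.4; the quantifier and annotation are not given in the sources used here. The study's methods used a test for counts, and the files used here hold FPKM, so limma was used instead. Symbols listed more than once (712 lines) and failed or too deep estimates (63 lines) were left out. FPKM was rescaled between libraries by unweighted TMM (30% of M and 5% of A trimmed, factors 0.918 to 1.046), genes with a mean under 1 were dropped, and log2(FPKM + 1) was fitted with limma 3.58.1 (R 4.3.3, intensity trend) on 4 groups plus the cre driver, all 15 libraries sharing 1 estimate of spread, with Benjamini-Hochberg adjustment over 11253 genes and a threshold of 0.05. Fold changes on this scale understate the change of low genes. Printed FPKM values are as deposited. The script was tested on simulated data. Fragments came from the deposited confidence intervals, taken as Poisson. The members and lists were chosen with earlier results of these data known. Named by rule were Pnn, the 2 most abundant members of each subgroup, up to 4 members of a subgroup that passed in each direction by smallest p, and up to 2 that passed in each other comparison; other names were chosen after their values were seen. Groups came from the labels. Alternatives were other scalings, pseudocount, filter, prior, driver terms, a replicate block, a length correction and leaving out each library. The summed alpha-cell markers are not reported here, and Gcg is given alone.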

Additional observations from a re-analysis of the deposited data

Results flagged for a closer look

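Of 40 groups of 5 libraries examined for the members named, 1 held a library far from the others; chance alone gives about 1 in 20 groups. Sfrs18 in ALDH- Foxo KO replicate 5 was at 6.06 FPKM, while the other 4 libraries were at 15.7 to 20.02 FPKM. Its gap to the nearest library was 0.764 of the range of the group, above the critical value of 0.71. Without that library, 9 members were called higher in ALDH+ cells and 1 lower.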

How the results depend on the processing

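The 10 members called higher in ALDH+ cells became 4 without the cre driver in the model, 1 in Rip-Cre libraries only and 0 in Pdx-Cre libraries only, and the 4 called lower became 1, 1 and 0; the last 2 settings use fewer libraries, and the Pdx-Cre setting was chosen after seeing the data. The count of lower members was also 1 with no filter and 1 with the length trend removed. Leaving out each library gave 0 to 11 higher and 0 to 4 lower. In controls, the 3 calls became 0 without the driver, 0 in Rip-Cre only, 0 in Pdx-Cre only, 0 with the length trend removed and 7 with only the groups compared, and 0 to 4 on leaving out each library. Between drivers, the 1 call became 2 on FPKM as deposited, 3 after quantile normalization and 1 to 3 on leaving out each library. For most of these settings the share of all genes called is not given, so the counts do not set the members apart from other genes. Except where a setting's own construction shows it, the cause was not tested. Comparisons within Foxo KO cells, between genotypes and of both interactions gave 0 under every alternative run, and no result turned its direction past the threshold.

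With the replicate block, 10 members were higher, 4 lower, 3 called in controls and 0 in Foxo KO. Same-numbered Foxo KO libraries of the 2 fractions correlated at 0.0917 to 0.406 after removing group means. At that step, with the driver still in the values, each correlated best with its own number. After also removing the mean of each driver, they correlated at 0.037 to 0.207, and the best partner was not looked for. Replicates 4 and 5, the Pdx-Cre ones, then share the value 0.207 by construction. The match of numbers is a hint from the data and not the design. The replicate block treated the numbers of the Foxo KO libraries as pairs, and no other setting did.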
